A study of Homo sapiens with 6 samples.

Results

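The genes described here are the RNAs of the mitochondrial ribosome and the nuclear genes whose products transcribe or copy mitochondrial DNA or regulate such genes. They are RNR1 and RNR2, POLRMT, TFAM, TFB2M, TFB1M, MTERF1, POLG, NRF1 and PPARGC1B, found by their symbols in the count table of each library, 10 of 28265 gene rows. They were picked with the GlnIND and parental values of these libraries in view, so their levels and fold changes are a description and carry no test of their own. RNA was sequenced after polyA selection from MDA-MB-231GlnIND cells, a derivative kept for more than 6 weeks in RPMI 1640 lacking glutamine with 10% dialysed fetal bovine serum, and from parental MDA-MB-231 cells kept in glutamine-replete RPMI 1640 with 10% fetal bovine serum, with 3 libraries in each group. MDA-MB-231 is an established human triple-negative breast cancer line, and glutamine supply, serum and cell population differed together. The labels do not say whether GlnIND is a clone or a pool, and name no separate cultures behind the libraries. The p-values therefore reflect library-to-library spread alone, and that spread may be technical.

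Mitochondria carry a small circular genome of their own. A single-subunit polymerase, POLRMT, reads it together with TFAM, which bends and packages the DNA, and TFB2M, which opens the promoter. The heavy-strand transcript begins with the small (RNR1) and large (RNR2) ribosomal RNAs, and MTERF1 binds just behind RNR2. The nuclear factor NRF1 and coactivators of the PGC-1 family, PPARGC1B among them, are known to drive nuclear genes for mitochondrial proteins, including the transcription factors above. Mitochondrial ribosomes built on these RNAs make core subunits of the respiratory chain.

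The gene rows named RNR1 and RNR2 matched the mitochondrial genes of that name in RefSeq. GENCODE 29 places them on the plus strand of chromosome M of GRCh38, RNR1 at chrM:648-1601 with 954 bases and RNR2 at chrM:1671-3229 with 1559 bases. The counts were made on hg19, whose mitochondrial sequence may differ in coordinates, so these positions are those of the reference and not of the counting. Both RNAs carry short A tails, and libraries were enriched with oligo-dT, so the longest stretch of A inside each is shown in capitals. The longest run was 6 bases in RNR1 and 7 bases in RNR2, and RNR2 had 7 runs of at least 5 A, against 1 in RNR1. The first line lies at chrM:968-1023 and the second at chrM:2432-2488.
RNR1: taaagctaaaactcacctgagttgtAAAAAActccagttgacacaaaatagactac
RNR2: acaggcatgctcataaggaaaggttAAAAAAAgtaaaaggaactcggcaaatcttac

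Promoters were searched for the NRF1 motif, GCGCA and GCGC parted by any single base, on both strands, since NRF1 is itself among these genes. RefSeq promoters on GRCh38.p14, each a window of 300 bases around a start site, were matched for 7 of the 10 genes, all but RNR1, RNR2 and NRF1. The motif was found in POLRMT, TFAM and TFB1M, against 5.78% of 35116 promoters. It was not among the letters of the TFB2M, MTERF1, POLG and PPARGC1B windows. The GC content was 66.3% in the POLRMT window, 68% in that of TFAM and 66.7% in that of TFB1M. For TFB2M and MTERF1 it was 65%, for POLG 66% and for PPARGC1B 46%. The shares over all promoters given here were not matched for GC content. The 3 matching stretches, with the motif in capitals, are POLRMT at chr19:633538-633586 on the minus strand, TFAM at chr10:58385322-58385381 on the plus strand and TFB1M at chr6:155314582-155314641 on the minus strand. In POLRMT 2 matches overlap.
POLRMT: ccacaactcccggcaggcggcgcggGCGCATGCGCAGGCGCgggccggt
TFAM: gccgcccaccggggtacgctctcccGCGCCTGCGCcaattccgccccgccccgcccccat
TFB1M: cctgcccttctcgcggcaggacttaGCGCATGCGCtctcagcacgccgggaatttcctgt
The log2 fold changes of these genes were 0.38 for POLRMT, -0.51 for TFAM and -0.28 for TFB1M. The part of the motif in these values was not tested. The GABP motif CCGGAAG was in POLRMT, TFB1M and MTERF1, against 10.3% of promoters, and shared no base with the NRF1 matches. The YY1 motif AAGATGGC was in none of the 7 windows, against 2.89% of promoters.

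Total counts per library were 21276815 to 24594248 in GlnIND and 18256219 to 21741371 in parental cells. The lowest count of any of these genes in any library was 176, well above the 6 counts taken as the floor of detection. Vimentin (VIM), a mesenchymal marker of this line, was at 5997 to 6139 CPM (counts scaled to a common library size) in GlnIND and 3816 to 4290 CPM in parental cells, and the oestrogen and progesterone receptors (ESR1, PGR) had at most 8 counts in any library. CD44, a further marker of this line, was lower in GlnIND, at 773 to 806 CPM, against 908 to 1047 CPM in parental cells. The leukocyte marker PTPRC had at most 6 counts. ERBB2, a receptor low in triple-negative tumours, was at 61.8 to 65.2 CPM in GlnIND and 31.5 to 41.4 CPM in parental cells, and the epithelial marker EPCAM at 1.88 to 2.61 CPM in GlnIND and 12 to 17.2 CPM in parental cells. The endothelial marker PECAM1 was at 3.87 to 4.71 CPM in GlnIND and 2.34 to 2.48 CPM in parental cells, and the fibroblast marker COL1A1 at 11.5 to 13.1 CPM in GlnIND and 3.77 to 5.72 CPM in parental cells. The part of other cell types in the results was not tested. Parental 1 stood apart, with a correlation of log2 CPM of 0.9865 and 0.9851 with parental 2 and 3, which correlated at 0.9917 with each other, while GlnIND libraries correlated at 0.994 to 0.9944.

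Both mitochondrial rRNAs were lower in GlnIND cells. RNR2, the RNA of the large ribosomal subunit, was at 4026, 3604 and 4004 CPM in GlnIND 1, 2 and 3, against 8362, 6280 and 6594 CPM in parental 1, 2 and 3. Every GlnIND library lay below every parental library. The means were 3878 ± 237 CPM in GlnIND and 7079 ± 1123 CPM in parental cells (SD, n = 3 each). The log2 fold change was -0.87 (SE 0.11), or 1.83-fold lower in GlnIND. The scaling used TMM factors, which correct for differences in library composition, and the fold change comes from the model fitted to all genes.

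RNR1, the RNA of the small subunit, was at 882, 559 and 743 CPM in GlnIND 1, 2 and 3, against 1065, 1207 and 1129 CPM in parental 1, 2 and 3. The groups did not overlap, and GlnIND 2 was the lowest library. The means were 728 ± 162 CPM in GlnIND and 1134 ± 70.9 CPM in parental cells (SD, n = 3 each). This came to -0.64 on the log2 scale (SE 0.14), and to -0.49 without GlnIND 2. The 2 RNAs varied differently within the groups. The coefficient of variation of RNR1 was 22.3% in GlnIND and 6.25% in parental cells, and that of RNR2 was 6.11% in GlnIND and 15.9% in parental cells.

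Together the rRNA rows took 0.515%, 0.439% and 0.503% of all counts in GlnIND 1, 2 and 3, against 0.875%, 0.717% and 0.741% in parental 1, 2 and 3. RNR2 ranked 4, 5 and 4 among all gene rows by count in the GlnIND libraries, and 1, 2 and 2 in the parental libraries. Leaving both rows out of the library sizes gave log2 fold changes of -0.88 for RNR2 and -0.65 for RNR1.

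Per base of length RNR2 exceeded RNR1 in every library, although both come from one transcript. The ratio of RNR2 to RNR1 per length was 2.79, 3.95 and 3.30 in GlnIND 1, 2 and 3, against 4.80, 3.18 and 3.57 in parental 1, 2 and 3. The groups overlapped, at 3.35 ± 0.58 in GlnIND and 3.85 ± 0.85 in parental cells (SD, n = 3 each). The level of an rRNA in a polyA library depends on its capture as well as its amount, and the part of capture in these values was not tested. In bulk RNA, a smaller share of cells with a transcript and less of it per cell cannot be told apart.

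**Figure D1:**
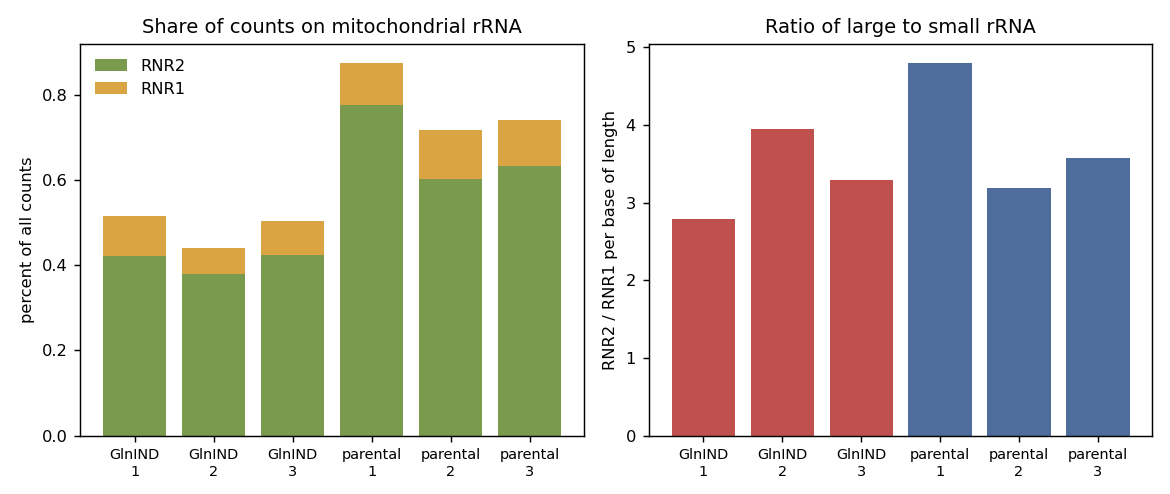
Left, the percent of all counts on RNR2 and RNR1 in each library, stacked. Right, the ratio of RNR2 to RNR1 per base of length. The GlnIND libraries hold 0.439% to 0.515% of counts on both rows and the parental libraries 0.717% to 0.875%, while the ratios of the groups overlap.

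The nuclear genome holds copies of RNR2, annotated as the humanin-like MTRNR2L genes, which could take or lose reads of RNR2. Of 13 such genes 10 had a row, and the row sums were small. MTRNR2L8, the highest that was tested, had 34 counts in all GlnIND libraries and 54 in all parental libraries. Its mean was 0.456 ± 0.258 CPM in GlnIND and 0.959 ± 0.368 CPM in parental cells (SD, n = 3 each), and it did not pass the test (log2 fold change -1.03, SE 0.49, edgeR adjusted p = 0.101). Without parental 1 it was called lower (log2 fold change -1.33, edgeR adjusted p = 0.0129). How multiply mapped reads were counted is not given in the sources used here. The 13 mRNAs encoded by mitochondrial DNA were looked up only under symbols with the prefix MT-, and 0 had a row. The rRNA rows carry no such prefix, so this search cannot tell whether the mRNAs were counted. Rows under other names were not looked for, so rRNA was not set against these mRNAs.

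**Figure D2:**
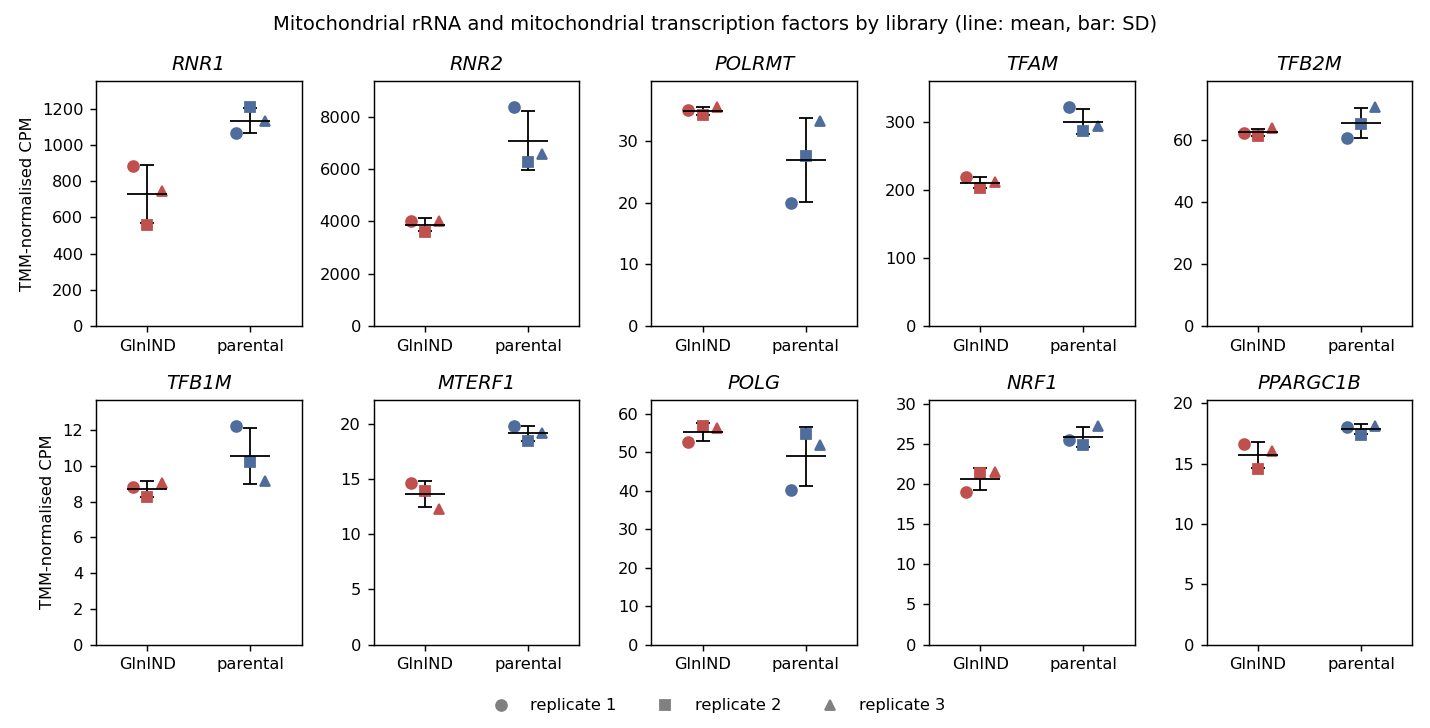
TMM-normalised CPM of each gene in every library, with GlnIND left of parental. Points are libraries, the line is the mean and the bar the SD of 3 libraries. RNR1, RNR2, TFAM, TFB1M, MTERF1, NRF1 and PPARGC1B lie lower in all GlnIND libraries, TFB1M by a narrow gap. POLRMT lies higher in all GlnIND libraries, and the groups overlap for TFB2M and POLG.

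Among the RNAs for the 3 proteins of the initiation complex, TFAM stood apart from POLRMT and TFB2M. TFAM was lower in GlnIND cells, at 219, 203 and 211 CPM in GlnIND 1, 2 and 3, against 322, 286 and 294 CPM in parental 1, 2 and 3. The groups were clearly apart, with means of 211 ± 7.85 CPM in GlnIND and 301 ± 18.7 CPM in parental cells (SD, n = 3 each) and a log2 fold change of -0.51 (SE 0.067), or 1.43-fold lower. A processed copy of the gene, TFAMP1, had 0 counts in GlnIND and 2 in parental libraries, beside 15270 and 17165 for TFAM.

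POLRMT, the polymerase itself, was at 35.0, 34.3 and 35.6 CPM in GlnIND 1, 2 and 3, against 19.9, 27.6 and 33.4 CPM in parental 1, 2 and 3. GlnIND libraries were nearly equal and all above the parental ones, which were spread widely. The means were 35.0 ± 0.63 CPM in GlnIND and 27.0 ± 6.76 CPM in parental cells (SD, n = 3 each), with a log2 fold change of 0.38 (SE 0.16). Without parental 1 the log2 fold change was 0.18, and with the trend of fold change on GC content removed, an alternative chosen after seeing the data, it was 0.10.

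TFB2M, the promoter-opening factor, was at 62.1, 61.1 and 63.6 CPM in GlnIND 1, 2 and 3, against 60.5, 65.1 and 70.4 CPM in parental 1, 2 and 3. The groups overlapped, with a log2 fold change of -0.07 (SE 0.077). Within libraries the count of TFAM was 6.03 ± 0.18 times that of POLRMT in GlnIND and 11.8 ± 3.87 times in parental cells (SD, n = 3 each), and the count of POLRMT was 0.562 ± 0.0026 times that of TFB2M in GlnIND and 0.409 ± 0.074 times in parental cells (SD, n = 3 each). These ratios need no library scaling. POLRMT over TFB2M was 0.564, 0.561 and 0.559 in GlnIND 1, 2 and 3. In parental 1, 2 and 3 it was 0.329, 0.424 and 0.475. TFAM over POLRMT was highest in parental 1, at 16.2, against 10.4 and 8.81 in parental 2 and 3. Whether the spread of these ratios within a group exceeds counting noise was not tested.

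TFB1M is a paralogue of TFB2M that methylates the small rRNA rather than opening promoters. It was at 8.83, 8.23 and 9.05 CPM in GlnIND 1, 2 and 3, against 12.2, 10.2 and 9.14 CPM in parental 1, 2 and 3. Parental 3 was only just above the highest GlnIND library. The log2 fold change was -0.28 (SE 0.14), with -0.16 without parental 1 and -0.39 without parental 3. The gene overlaps TIAM2 and CLDN20 in RefSeq, whose rows had 321 and 14 counts in GlnIND and 200 and 15 in parental libraries, beside 631 and 602 for TFB1M.

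MTERF1, which binds mitochondrial DNA behind RNR2, was at 14.7, 13.9 and 12.3 CPM in GlnIND 1, 2 and 3, against 19.8, 18.4 and 19.2 CPM in parental 1, 2 and 3. All GlnIND libraries were lower, and the log2 fold change was -0.49 (SE 0.11). POLG, the catalytic subunit of the mitochondrial DNA polymerase, was at 52.5, 56.8 and 56.1 CPM in GlnIND 1, 2 and 3, against 40.2, 54.7 and 51.7 CPM in parental 1, 2 and 3. The groups overlapped, and parental 1 was by far the lowest. The log2 fold change of POLG was 0.18 (SE 0.11), and 0.04 without parental 1. FANCI, which overlaps POLG in RefSeq, had 10439 counts in GlnIND and 6158 in parental libraries, beside 4000 and 2763 for POLG, and reads in the overlap may have been left uncounted.

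Of the nuclear regulators, NRF1 was at 19.0, 21.4 and 21.6 CPM in GlnIND 1, 2 and 3, against 25.5, 24.9 and 27.3 CPM in parental 1, 2 and 3. The groups did not overlap, and the log2 fold change was -0.33 (SE 0.096). PPARGC1B was at 16.6, 14.6 and 16.0 CPM in GlnIND 1, 2 and 3, against 18.04, 17.4 and 18.1 CPM in parental 1, 2 and 3. The gap between groups was small, with a log2 fold change of -0.18 (SE 0.1).

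In the fit over all genes (edgeR's quasi-likelihood test, Benjamini-Hochberg adjusted p under 0.05), 5 of the 10 genes were called lower in GlnIND, namely RNR1, RNR2, TFAM, MTERF1 and NRF1, where 27.9% of 13949 tested genes were called lower and 56.3% were called in either direction. The same edgeR test called 0 of the 10 higher, where 28.4% of tested genes were; at an unadjusted p under 0.05 1 was higher, POLRMT, and DESeq2 called 0 higher. GlnIND and parental CPM ranges were separate for 8 of the 10, 7 below and 1 above, where 65% of tested genes had separate ranges, 31.3% below and 33.7% above. The median log2 fold change was -0.30 over the 10 genes and 0.03 over all tested genes. The call of NRF1 was lost without GlnIND 1, where its log2 fold change was -0.28, and also under library totals, under upper-quartile factors and at an adjusted p under 0.01. With the neighbour shift removed NRF1 was called higher instead, at 0.28. That of MTERF1 was lost on removal of the GC trend or of the neighbour shift. POLRMT was called higher without parental 1 (0.18) or parental 3 (0.54), and TFB1M was called lower without parental 3 (-0.39). POLRMT was also called higher with upper-quartile factors, library totals, the replicate block, no filter on low counts or the neighbour shift removed. POLG was called higher with library totals, and PPARGC1B lower with the neighbour shift removed. Because the genes were picked on this contrast, nothing is read from these counts.

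Divided by exon length in GENCODE 29, the levels followed nearly one order in both groups. In GlnIND cells it ran from RNR2 (2487 CPM per kilobase) through RNR1 (763), TFAM (39.0), TFB2M (33.7), POLG (12.2), POLRMT (9.12), TFB1M (6.11), NRF1 (5.605) and MTERF1 (3.35) to PPARGC1B (1.28). TFB1M and NRF1 overlapped between libraries there, and no other neighbours in this order did. In parental cells RNR2 (4541 CPM per kilobase), RNR1 (1189), TFAM (55.6), TFB2M (35.3) and POLG (10.8) led in the same order. TFB1M (7.40 CPM per kilobase), POLRMT (7.04) and NRF1 (7.02) came next, where TFB1M overlapped POLRMT and POLRMT overlapped NRF1. MTERF1 (4.71 CPM per kilobase) and PPARGC1B (1.45) followed without overlap.

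Some of the nuclear genes shared the direction of the stretch of chromosome they lie on, to differing extents, and others did not. For each nuclear gene the median log2 fold change of the 40 nearest tested genes was taken, with gene order from RefSeq on GRCh38.p14. MTERF1 and NRF1 both lie on chromosome 7, and their neighbours had medians of -0.56 and -0.60. With that shift subtracted the log2 fold change was 0.07 for MTERF1 and 0.28 for NRF1, so the direction of both turned. TFAM on chromosome 10 had neighbours at -0.09 and stood at -0.42 after subtraction. POLRMT on chromosome 19 had neighbours at -0.05 and stood at 0.42. POLG on chromosome 15 had neighbours at 0.32 and stood at -0.15, and PPARGC1B on chromosome 5 had neighbours at 0.20 and stood at -0.38. TFB2M on chromosome 1, with neighbours at -0.25, stood at 0.18, and TFB1M on chromosome 6, with neighbours at 0.02, at -0.30. The part of gene dosage in these shifts was not tested, and the rRNA genes have no such neighbours.

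**Figure D3:**
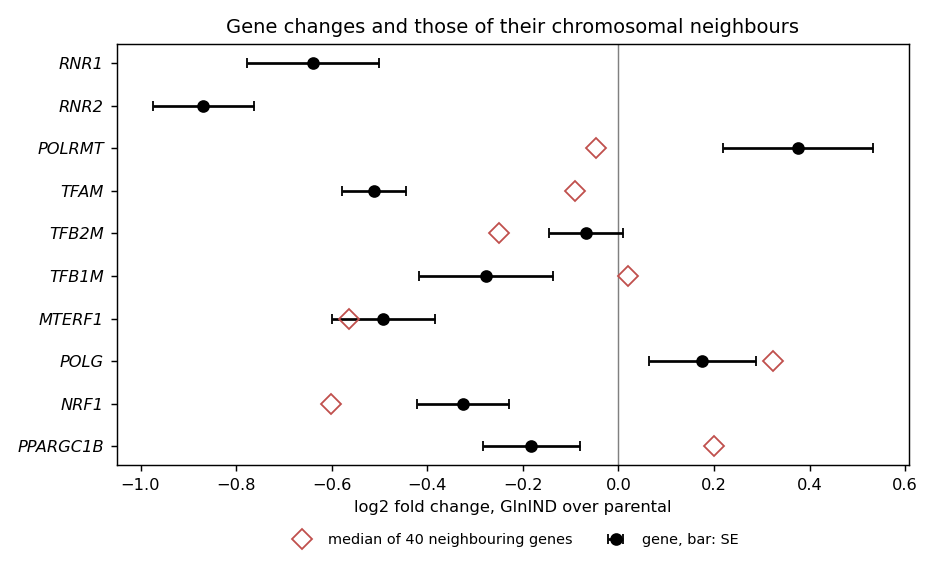
Log2 fold change of each gene, GlnIND over parental (point, bar: SE), and the median of its 40 nearest tested genes (open diamond), which the rRNA genes lack. MTERF1 lies close to its neighbours at -0.56, whereas TFAM at -0.51 lies away from neighbours at -0.09.

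Over all genes, GC content moved with how far parental 1 departed from parental 2 and 3, though not every one of the 10 genes followed. Parental 1 was lower by 0.61 on the log2 scale for POLRMT (GC 66.3%) and lower by 0.40 for POLG (GC 58.5%), and higher by 0.38 for RNR2 (GC 42.8%) and 0.34 for TFB1M (GC 43.1%). TFB2M (GC 41.9%) and RNR1 (GC 45.5%) went the other way from the low-GC genes RNR2 and TFB1M, with parental 1 lower by 0.16 for TFB2M and by 0.13 for RNR1. The difference was 0.15 for TFAM (GC 38.4%), 0.08 for MTERF1 (GC 36.5%), -0.03 for NRF1 (GC 48.6%) and 0.02 for PPARGC1B (GC 50.5%). The median departure was 0.18 in the 3347 genes lowest in GC and -0.33 in the 3347 highest. The log2 fold change between GlnIND and parental cells had medians of -0.18 and 0.22 in those gene groups. With the GC trend removed TFAM stood at -0.33, MTERF1 at -0.25 and POLG at -0.02. The part of library preparation in this pattern was not tested.

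**Figure D4:**
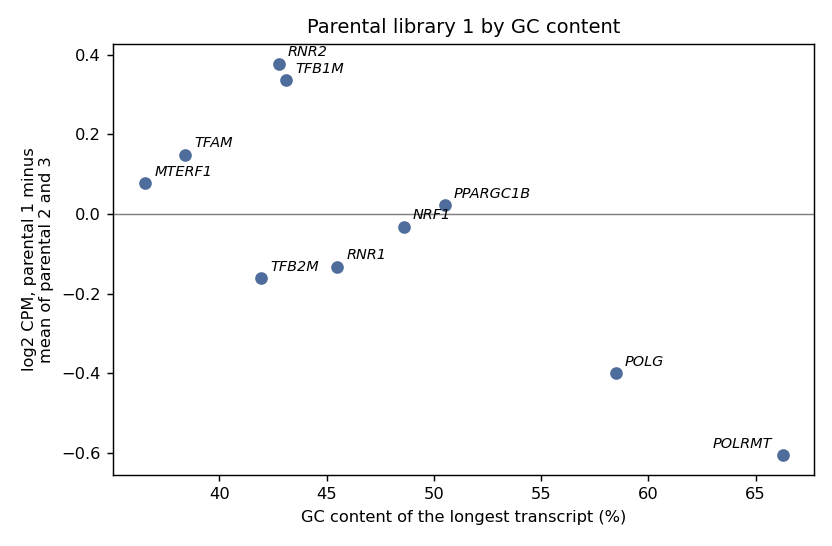
Difference in log2 CPM between parental 1 and the mean of parental 2 and 3 against the GC content of the longest GENCODE 29 transcript, for the 10 genes. POLRMT and POLG, at 66.3% and 58.5% GC, lie lowest.

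The genes whose levels followed most closely over the 6 libraries, by Pearson's r of log2 CPM among 10582 genes with a mean of at least 5 CPM, were HAUS1 (r = 0.997), NR2F1-AS1 (0.985) and HSD17B11 (0.983) for RNR1. For RNR2 they were POLR3C (r = 0.999), RNF214 (0.999) and POLR3B (0.998), and for TFAM ZNF280C, RSBN1L and TRIM24 (r = 0.998 each). The points are shared libraries in only 2 groups, and a group difference alone gives a high r.

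The other genes of mitochondrial gene expression, which were not among the 10, went both ways. Of 71 tested genes on 7 lists, 12 rose and 28 fell in GlnIND cells, where 28.4% and 27.9% of all tested genes were called higher and lower, and 31 were not called. Their median log2 fold change was -0.14, against 0.03 over all tested genes. With library totals in place of TMM factors the median of all genes moved to 0.18, and list counts moved with it.

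Among 5 genes of elongation and termination only MTERF3 was called. It belongs to the same family as MTERF1 and is known from mice as a repressor of mitochondrial transcription. It fell to 16.7 ± 0.778 CPM in GlnIND, against 28.7 ± 1.88 CPM in parental cells (SD, n = 3 each). The difference was -0.79 on the log2 scale (SE 0.097), with an edgeR adjusted p of 0.000108. Its neighbours had a median of -0.49, and subtracting it left MTERF3 at -0.29 (edgeR-based adjusted p = 0.031). No gene of this list rose in the edgeR fit, at an unadjusted p under 0.05 or by DESeq2 (0 in each). MRPL12, a ribosomal protein that also binds POLRMT, was at 101 ± 4.6 CPM in GlnIND and 103 ± 11.5 CPM in parental cells (SD, n = 3 each; edgeR adjusted p = 0.775). MRPL12 was called lower without parental 1 (log2 fold change -0.13, edgeR adjusted p = 0.0314), on removal of the neighbour shift (-0.42, adjusted p = 0.00333) and on removal of the GC trend (-0.29, adjusted p = 0.0187). The list's median was -0.03. The genes of this list called lower numbered 2 without parental 1, and also after removal of the GC trend.

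Of 14 genes of mitochondrial DNA replication 5 rose and 6 fell, and 3 were uncalled. The median log2 fold change was -0.21. SSBP1, which coats single-stranded mitochondrial DNA, fell to 107 ± 3.13 CPM in GlnIND, against 213 ± 6.92 CPM in parental cells (SD, n = 3 each). The difference was -0.997 on the log2 scale (SE 0.061), with an edgeR adjusted p of 1.54e-06. Its neighbours had a median of -0.49, and subtracting it left SSBP1 at -0.51. The primase PRIMPOL fell by 0.71 on the log2 scale (SE 0.13), and stood at -0.22 with the neighbour shift removed (edgeR-based adjusted p = 0.173). The nuclease EXOG rose by 0.94 (SE 0.09), or by 0.52 beyond its neighbours. DNA2, a helicase and nuclease, was at 38.8 ± 3.43 CPM in GlnIND and 43.1 ± 1.88 CPM in parental cells (SD, n = 3 each; edgeR adjusted p = 0.173). Beside them POLG2, the accessory subunit of the polymerase of which POLG is the catalytic one, was at 28.1 ± 0.385 CPM in GlnIND and 18.3 ± 1.118 CPM in parental cells (SD, n = 3 each) and was called higher, and the helicase TWNK was called lower, at 77.7 ± 2.84 CPM in GlnIND and 97.7 ± 1.3 CPM in parental cells (SD, n = 3 each). These 2 replisome partners were chosen after their values were seen.

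Of 8 tested genes that supply nucleotides to mitochondrial DNA, 1 rose and 5 fell, and 2 were uncalled. The median was -0.31. TK2, the mitochondrial thymidine kinase, rose to 48.2 ± 1.86 CPM in GlnIND, against 19.6 ± 0.905 CPM in parental cells (SD, n = 3 each). The difference was 1.30 on the log2 scale (SE 0.084), with an edgeR adjusted p of 2.04e-06. DGUOK, the matching kinase for purines, fell by 0.65 on the log2 scale (SE 0.087). The pyrimidine nucleotide carrier SLC25A33 fell by 0.40 (SE 0.14, edgeR adjusted p = 0.0321), a call lost without GlnIND 2, GlnIND 3, parental 2 or parental 3 (edgeR adjusted p of 0.122, 0.0935, 0.051 and 0.086). It was also lost with upper-quartile factors (0.088), library totals (0.166), the replicate block (0.0526) and the neighbour shift removed (-0.19 on the log2 scale, adjusted p = 0.273). Its relative SLC25A36 was not called (log2 fold change 0.09, SE 0.075), but was called higher with library totals (edgeR adjusted p = 0.0175) or after removal of the GC trend (0.00606). Without GlnIND 2 or GlnIND 3, or with upper-quartile factors, 3 genes of this list fell, and without parental 1, 2 rose.

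Of 14 genes that cut mitochondrial precursor RNA or modify mitochondrial rRNA, 2 rose and 5 fell, and 7 were uncalled. The median was -0.01. RPUSD4, a pseudouridine synthase, fell by 0.84, TRMT2B, a methyltransferase, by 0.83, and MRM2, which methylates the large rRNA, by 0.72 on the log2 scale (SE 0.11, 0.12 and 0.077). The neighbours of RPUSD4 had a median of -0.995, and subtracting it left RPUSD4 at 0.15 (edgeR-based adjusted p = 0.256). The same subtraction left TRMT2B at -0.31 (adjusted p = 0.0471) and MRM2 at -0.32 (adjusted p = 0.0075). ELAC2, the nuclease that trims tRNA ends out of the precursor, was at 186 ± 5.72 CPM in GlnIND and 173 ± 5.89 CPM in parental cells (SD, n = 3 each; edgeR adjusted p = 0.167), and was called higher with upper-quartile factors (0.0187) or library totals (0.00477). Of this list 1 rose without any 1 of the GlnIND libraries or without parental 2, and 3 fell without GlnIND 1.

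Of 15 genes of mitochondrial RNA stability and turnover, 2 rose and 7 fell, and 6 were uncalled. The median was -0.18. REXO2, an oligoribonuclease, fell by 0.77 (SE 0.071); its neighbours had a median of -0.91, and subtracting it left REXO2 at 0.15 (edgeR-based adjusted p = 0.118). SUPV3L1, the helicase of the mitochondrial degradosome, fell by 0.34 (SE 0.072). FASTK rose by 0.76 (SE 0.22, edgeR adjusted p = 0.0131), with parental 1 at 13.8 CPM, below parental 2 and 3 at 25.3 and 29.5 CPM. It stood at 0.49 without parental 1, and its call was lost without GlnIND 3 (edgeR adjusted p = 0.0503), on removal of the GC trend (0.054) or of the neighbour shift (0.131). PDE12, which removes A tails, was not called (log2 fold change -0.13, SE 0.077), but was without parental 1 (edgeR adjusted p = 0.0435) or parental 3 (0.0479), and with the neighbour shift removed it was called lower at -0.39 (0.00223), while with the GC trend removed it stood at -0.02. The genes of this list that fell numbered 10 without parental 1, 3 with upper-quartile factors, library totals or the GC trend removed, 4 without GlnIND 2 or GlnIND 3, and 1 rose without GlnIND 1 or GlnIND 2 and 0 without GlnIND 3.

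Of 13 tested nuclear regulators beside NRF1 and PPARGC1B, 2 rose and 4 fell, and 7 were uncalled. The median was -0.13. The 2 that rose were PPARA and ESRRG. ESRRG had only 60 counts in all GlnIND libraries and 4 in all parental libraries, with a mean below the 1 CPM set for naming. With a CPM of at least 1 in 3 libraries required, 1 regulator rose. PPARA, a nuclear receptor of fatty acid oxidation, rose by 0.89 (SE 0.098, edgeR adjusted p = 5.44e-05), and the corepressor NRIP1 fell by 0.91 (SE 0.12), with -0.49 left beyond its neighbours. GABPA, the DNA-binding subunit of the factor whose motif was searched above, fell by 0.56 (SE 0.12), and stood at -0.23 with the neighbour shift removed (edgeR-based adjusted p = 0.139) and at -0.32 with the GC trend removed (0.0468). YY1 was at 212 ± 5.12 CPM in GlnIND and 195 ± 11.2 CPM in parental cells (SD, n = 3 each; edgeR adjusted p = 0.121), and was called higher without parental 1 (edgeR adjusted p = 0.00248), with upper-quartile factors (0.0118) or with library totals (0.00262). PPARGC1A, the sister coactivator of PPARGC1B, was at 5.37 ± 0.33 CPM in GlnIND and 6.03 ± 1.36 CPM in parental cells (SD, n = 3 each) and was not called; it was added after its values were seen. Without parental 1, 4 regulators rose.

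**Figure D5:**
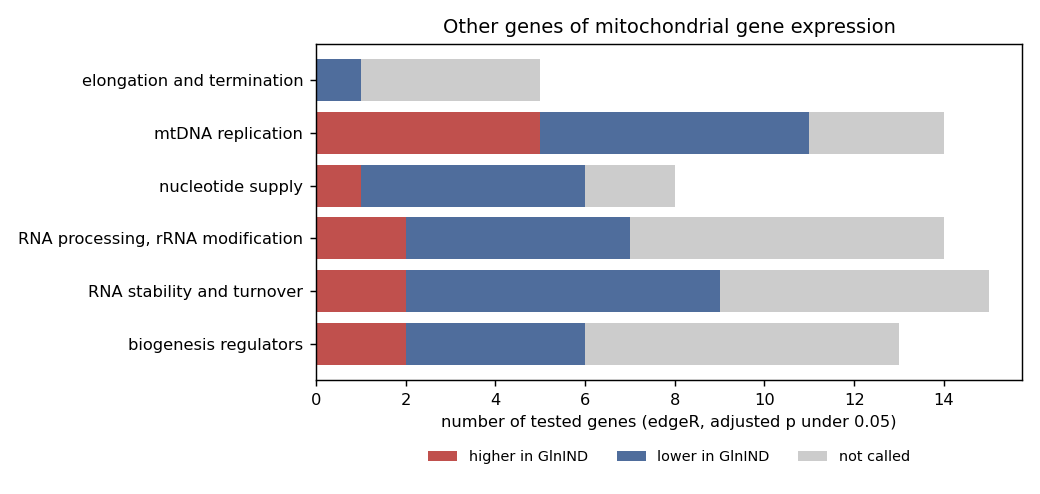
Number of tested genes called higher, called lower or not called in GlnIND cells for 6 lists of mitochondrial gene expression (edgeR, adjusted p under 0.05). Each list but the first, where 0 rose, holds genes called in both directions.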

How the data were processed

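The values deposited are raw counts by gene symbol, in 1 table per library and 1 matrix. FastQC, STAR, featureCounts, DESeq and build hg19 are named per the submitters' processing notes. Versions, the annotation, strandedness and the treatment of multimapping reads are not given in the sources used here. The matrix held the values of the tables with the names of replicates 1 and 3 exchanged within each group; the tables were used. Between 60.6% and 65% of genes under 20 counts had an even count, as when both ends of a pair are counted, so the floor was 3 pairs, or 6 counts.

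Counts were tested with edgeR 4.0.16 (glmQLFit, glmQLFTest, two-sided, TMM factors, filterByExpr with a minimum count of 10 and total of 15, group alone) in R 4.3.3. The 13949 tested genes held 99.94% of counts. A permutation test of 3 against 3 libraries cannot give p under 0.1. The fit was tested on simulated data. The genes and lists were chosen with earlier results of these data known. Named list genes are the 3 largest called changes at a mean of at least 1 CPM and the highest uncalled gene of each list. Neighbour medians came from RefSeq (GRCh38.p14) order, and GC content and exon lengths from GENCODE 29. GC content was matched for 96% of tested genes. Alternatives were RLE, upper-quartile and no factors, other filters, DESeq2 1.42.0, a stricter threshold, the matrix, each library left out, a replicate block, and removal of the neighbour shift; removal of the GC trend was added later. Both removals treat the subtracted trend as known.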

Additional observations from a re-analysis of the deposited data

How the results depend on the processing

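RNR1, RNR2, TFAM, TFB1M, PPARGC1B and POLRMT kept the sign of their log2 fold change under every alternative run for them. The matrix, which holds the same values within each group, and the stricter threshold could not alter a fold change. With the neighbour shift removed NRF1 (0.28) and MTERF1 (0.072) turned positive, TFAM stood at -0.42, TFB2M at 0.18, POLG at -0.15 and PPARGC1B at -0.38, 2 of the 10 genes were called lower (TFAM, PPARGC1B) and 2 higher (POLRMT, NRF1), and the list genes RPUSD4 (0.15) and REXO2 (0.15) reversed. List counts were then 2 lower for elongation, 3 higher for replication, 2 higher and 2 lower for nucleotide supply, 1 higher and 3 lower for processing, and 1 higher for turnover. With upper-quartile factors TFAM was at -0.42, TFB2M at 0.022, NRF1 at -0.23 and PPARGC1B at -0.091, 1 of the 10 was called higher, nucleotide supply had 2 higher and 3 lower, and processing and turnover had 3 lower each. With library totals alone TFAM was at -0.36, TFB2M at 0.083, MTERF1 at -0.34, NRF1 at -0.17 and PPARGC1B at -0.029, 2 of the 10 were called higher (POLRMT, POLG), and the counts were 1 higher for elongation, 3 higher and 3 lower for nucleotide supply, 4 higher and 3 lower for processing, 3 lower for turnover and 6 higher for regulators. With the GC trend removed POLRMT was at 0.10, TFAM at -0.33, TFB2M at 0.014, MTERF1 at -0.25, POLG at -0.0205 and PPARGC1B at -0.26, with 1 higher and 2 lower for elongation, 3 higher for nucleotide supply and 3 lower for turnover. Processing had 1 gene higher with RLE factors, DESeq2 or the replicate block. POLRMT was called with the replicate block or without a filter on low counts, 1 higher in each. Regulators had 1 higher at a CPM of at least 1 in 3 libraries. At an adjusted p under 0.01, nucleotide supply and turnover had 3 lower each, turnover 0 higher, and processing 1 higher and 3 lower.

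Leaving out 1 library at a time gave log2 fold changes of -0.81 to -0.49 for RNR1, -0.97 to -0.74 for RNR2, 0.18 to 0.54 for POLRMT, -0.56 to -0.47 for TFAM, -0.39 to -0.16 for TFB1M and 0.04 to 0.25 for POLG. Called higher were 0 to 1 of the 10 genes (POLRMT without parental 1 or parental 3). Ranges of list counts were 1 to 2 higher and 3 to 5 lower for processing, 0 to 2 higher and 4 to 10 lower for turnover, 1 to 2 higher and 3 to 5 lower for nucleotide supply, 1 to 2 lower for elongation, 2 to 4 higher for regulators and 0 to 1 lower for the RNR2 copies. Over all genes the counts higher and lower were 3965 and 3888, against 4749 and 3204 with upper-quartile factors and 5354 and 2810 with library totals, which moved the all-gene median log2 fold change to 0.12 and 0.18. The replicate numbers did not pair the libraries (correlations of deviations -0.063, 0.03 and -0.037), and the replicate block gave 3719 higher and 3584 lower. The cause of these changes was not tested.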
